A study of Mus musculus with 7 samples.

Results

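The contacts of the *Gata3* promoter were compared between Th0 and Th2 cells in 2 circular chromosome conformation capture sequencing (4C-seq) libraries, by setting the list of regions called in one library against the list called in the other. A region counted as shared when it overlapped a region of the other list by at least 1 base and as a one-list region when it did not. The Th0 list held 172 regions and the Th2 list 129, together 301 of the 1153 regions called in the 7 libraries of the series. Both libraries used *Gata3*-TSS as bait, the transcription start site that borders the RefSeq promoter at chr2:9878601-9878850 (mouse genome build GRCm38, also called mm10, used for all coordinates here). *Gata3* (ENSMUSG00000015619, chr2:9857078-9890034) lies on the minus strand, so lower coordinates are downstream of the gene.

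The cells were naive CD4+ T cells of wild-type (WT) C57BL/6 mice that had been stimulated for 3 d with anti-CD3ε and anti-CD28 antibodies. Th0 cells received no cytokine, and Th2 cells received IL-4 with an anti-IFN-γ antibody, so the contrast is that of both agents and not of IL-4 alone. The whole cultures were used, so a contact made in fewer cells and a contact made less often in each cell cannot be told apart. The identity of the cells could not be checked by marker genes, since the lists carry no expression. Each condition had 1 library. The lists hold no read counts or scores, the depth of the libraries is unknown, and no test between the conditions was possible. Every difference below is therefore a difference between 2 lists. A region missing from a list may lie just under the threshold for calling it.

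GATA3 is the transcription factor that directs naive CD4+ T cells towards the Th2 fate, and IL-4 raises it through STAT6. Genes of this kind are controlled by enhancers that can lie far away on the same chromosome and are brought near the promoter by folding of the chromatin. In 4C-seq, crosslinked chromatin is cut, here with NlaIII at CATG, and ligated, and sequencing then reads the fragments that became joined to the bait. Of the 602 edges of the 301 regions, 574 (95.3%) fell on a CATG of this build. Examples of edges, each with 20 bases on either side and the CATG in capitals, are given for the Th2-only region 815 to 828 kb downstream of the TSS (chr2:9050127-9050170, plus strand) and for the Th0-only region 685 to 694 kb downstream (chr2:9184216-9184259, plus strand).
Edge of a Th2-only region: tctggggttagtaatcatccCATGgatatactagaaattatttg
Edge of a Th0-only region: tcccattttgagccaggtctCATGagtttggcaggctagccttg

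On chromosome 2, which carries *Gata3*, the 2 lists were of like size and about equally split. The Th0 list had 68 regions there, of which 33 (48.5%) were shared and 35 were in the Th0 list only. The Th2 list had 63 regions, of which 32 (50.8%) were shared and 31 were in the Th2 list only. The lists had 559 kb in common, which was 49.9% of the Th0 bases and 51.8% of the Th2 bases. On the other chromosomes, for which the study set the caller's sizes differently, the overlap was smaller. There, 17 of 104 Th0 regions (16.3%) and 17 of 66 Th2 regions (25.8%) were shared, and the shared bases made up 15.03% of the Th0 bases and 23.7% of the Th2 bases.

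Sharing was more frequent near the promoter than far from it, though not in every step of distance. An overlap of 1 base is met more readily where the other list covers more bases. Coverage was also highest next to the TSS, as given below, and its part in the sharing was not tested. Within 2 Mb of the TSS, measured to the middle of each region, 20 of 23 Th0 regions (87.0%) and 19 of 25 Th2 regions (76.0%) were shared. Within 5 Mb, 24 of 31 Th0 regions (77.4%) and 23 of 31 Th2 regions (74.2%) were shared. Beyond 5 Mb the numbers were 9 of 37 (24.3%) and 9 of 32 (28.1%), and beyond 20 Mb they were 4 of 23 (17.4%) and 4 of 19 (21.1%). For the Th2 list the 95% Wilson intervals were 56.8 to 86.3% within 5 Mb and 15.6 to 45.4% beyond it, which cover counting error over regions only. By bins, 3 of 5 regions of each list were shared from 0.5 to 1 Mb, but 7 of 8 Th0 regions (87.5%) and 7 of 10 Th2 regions (70.0%) from 1 to 2 Mb. In the Th2 list 2 of 12 (16.7%) were shared from 20 to 50 Mb and 2 of 7 (28.6%) beyond 50 Mb. The shared regions had a median distance of 1.27 Mb by their Th0 edges and 1.28 Mb by their Th2 edges. The Th0-only regions lay at a median of 22.3 Mb and the Th2-only regions at 15.6 Mb. The 95% order-statistic intervals of these medians, 9.78 to 51.8 Mb for Th0-only and 10.4 to 34.0 Mb for Th2-only regions, overlapped. They describe the spread of the regions of 1 library each and not of replicates.

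The bases covered by called regions were highest next to the TSS in both lists and lowest beyond 50 Mb. In the 0.5 Mb on either side of the TSS, 22.2% of bases lay in Th0 regions and 25.9% in Th2 regions. From 0.5 to 1 Mb the values were 8.18% and 11.4%, and from 1 to 2 Mb they were 8.97% and 10.0%. Over both sides together the Th2 list covered more of each of these bins. Under 1 Mb this came from the downstream side alone, with 37.6% against 29.0% within 0.5 Mb and 22.8% against 15.8% from 0.5 to 1 Mb. Upstream the Th0 list covered more, with 15.4% against 14.1% within 0.5 Mb. From 2 to 5 Mb the order turned, with 2.01% in Th0 regions and 1.70% in Th2 regions. From 20 to 50 Mb the Th2 list had 12 regions and the Th0 list 8, whereas beyond 50 Mb the Th2 list had 7 and the Th0 list 15. Coverage beyond 50 Mb was 0.175% for Th0 and 0.0710% for Th2. Neither list had a region nearer than about 104 kb downstream or 110 kb upstream of the TSS. The part played by the caller's handling of the bait's surroundings was not tested.

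**Figure D1:**
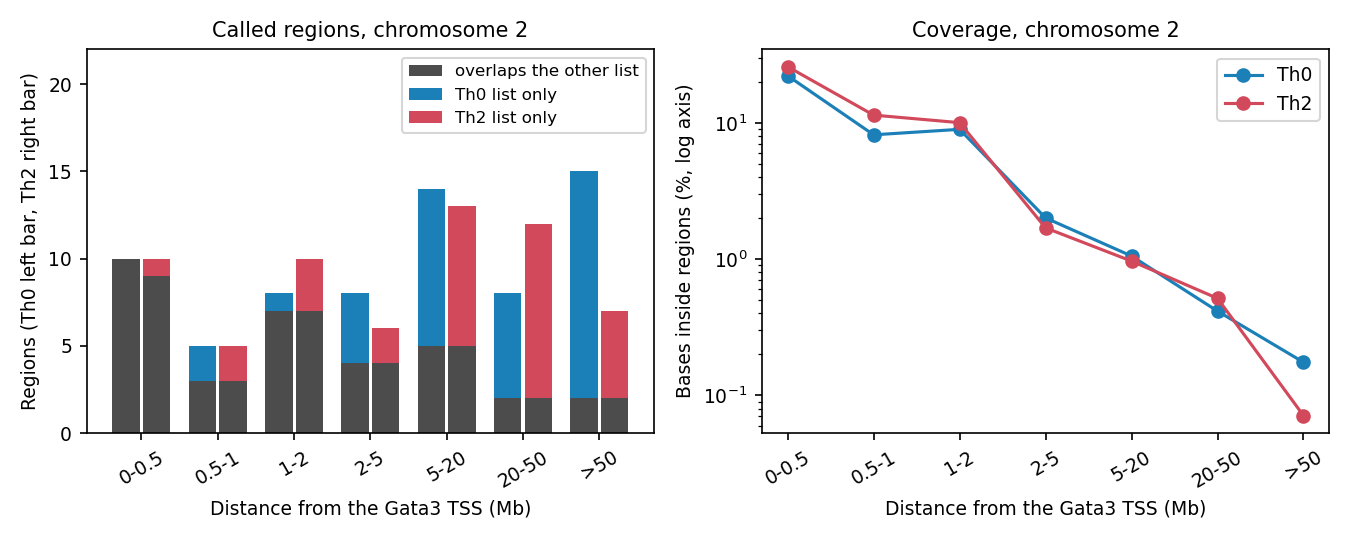
Left, the number of called regions on chromosome 2 (y axis) in each bin of distance from the *Gata3* TSS in Mb (x axis), with Th0 as the left and Th2 as the right bar of a pair and the part shared with the other list in grey. Right, the percent of bases of each bin inside called regions, on a log axis. The grey part falls from 10 of 10 Th0 and 9 of 10 Th2 regions under 0.5 Mb to 2 of 15 and 2 of 7 beyond 50 Mb.

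Near *Gata3*, the downstream regions touched no protein-coding gene. This held for the 15 Th0 regions and the 16 Th2 regions within 2 Mb on that side. In Th0 cells the longest gap between neighbouring regions within 2 Mb on this side ran from 694 to 960 kb downstream of the TSS, over 265 kb. In Th2 cells 2 regions lay inside it, at chr2:9050147-9063202 (13.1 kb, 815 to 828 kb downstream) and at chr2:8935471-8970937 (35.5 kb, 908 to 943 kb downstream). The latter is the longest of the one-list regions on chromosome 2 and lies at the mG900 region, which is the study's candidate enhancer region and holds the study's other bait. The other Th2-only regions downstream were at chr2:8796886-8809302 (12.4 kb, 1069 to 1082 kb) and chr2:9650500-9675920 (25.4 kb, 203 to 228 kb). The last of these ended 1.08 kb from a region that both lists held. In the opposite direction, the Th0 list alone had chr2:9184236-9193770 (9.54 kb, 685 to 694 kb) and chr2:9293357-9305349 (11.99 kb, 573 to 585 kb). In Th2 cells these 2 positions lay in gaps, from 636 to 815 kb and from 527 to 622 kb downstream.

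**Figure D2:**
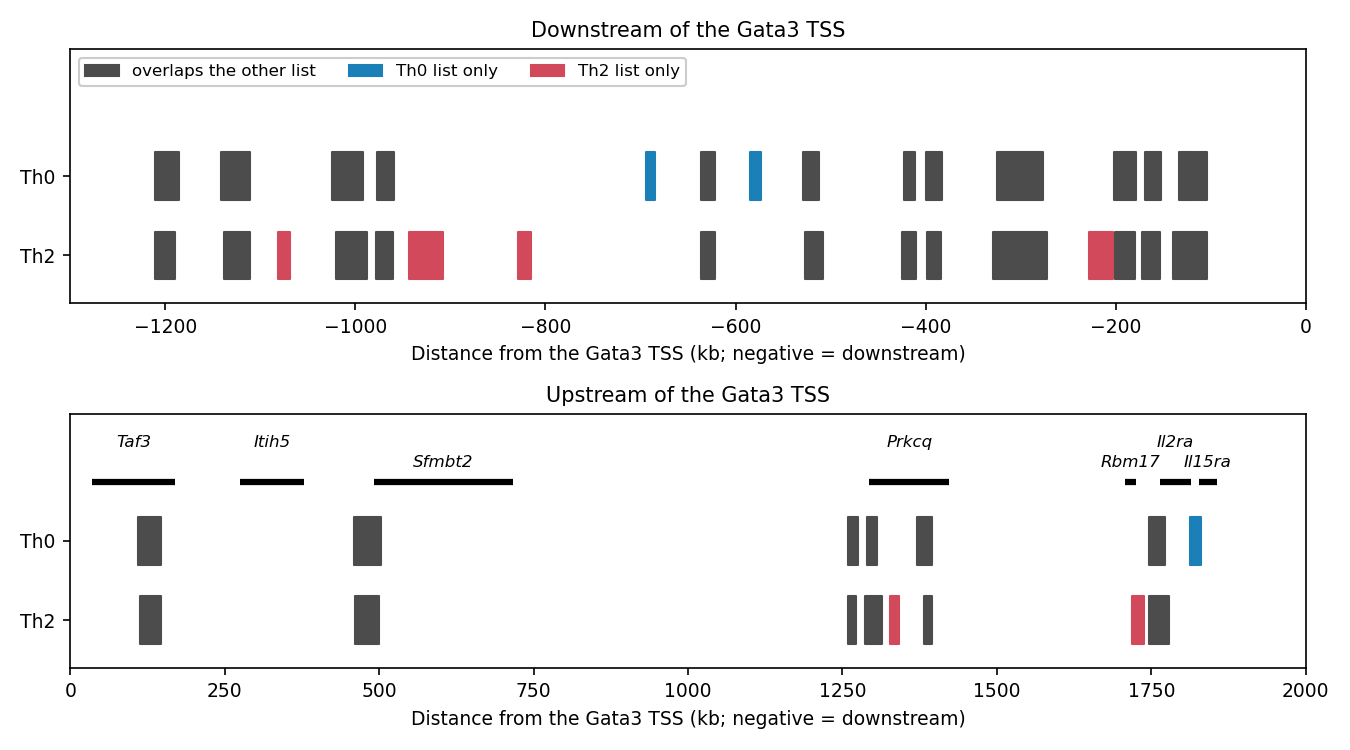
Called regions of the Th0 and Th2 lists against distance from the *Gata3* TSS in kb, downstream (top) and upstream (bottom), with regions that overlap the other list in grey, Th0-only regions in blue and Th2-only regions in red. Black lines mark genes. The Th2-only regions include those at 815 to 828 kb and 908 to 943 kb downstream, inside a gap of 265 kb between Th0 regions, and the Th0-only region upstream lies at *Il15ra*.

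Upstream of *Gata3* several regions lay at genes. *Taf3*, which encodes a subunit of the general transcription factor TFIID, held a shared region of 37.2 kb in Th0 and 33.8 kb in Th2 cells. The start of *Sfmbt2*, a Polycomb group gene, lay in a shared region of 22.6 kb in Th0 and 19.0 kb in Th2 cells. Then followed 756 kb, from 503 to 1259 kb upstream, in which neither list had a region. Beyond it lay *Prkcq* (ENSMUSG00000026778, chr2:11172108-11301222), which encodes protein kinase C θ, a kinase of T cell receptor signalling. Its start lay in a shared region that spanned 17.1 kb in Th0 and 27.4 kb in Th2 cells. A shared region in the gene's distal part went the other way, with 24.1 kb in Th0 and 13.98 kb in Th2 cells. Between them the Th2 list alone had chr2:11205811-11219730 (13.9 kb), inside the gene. In all, 28.6% of *Prkcq* lay in Th0 regions and 37.0% in Th2 regions.

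About 1.7 to 1.8 Mb upstream the lists parted around the interleukin receptor genes. The start of *Il2ra* (ENSMUSG00000026770, chr2:11642807-11693193), the gene of the IL-2 receptor α chain CD25, was in both lists. The region there was 25.4 kb long in Th0 and 32.8 kb in Th2 cells, with the same lower edge in both. On one side, the Th2 list alone had chr2:11597578-11616314 (18.7 kb), which held the start of *Rbm17*, a splicing factor gene, and lay 8.52 kb from the nearest Th0 region. On the other side, the Th0 list alone had chr2:11691373-11708478 (17.1 kb), which held the 3′ end of *Il2ra* and the start of *Il15ra*, the gene of the IL-15 receptor α chain. That Th0 region lay 33.8 kb from the nearest Th2 region.

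Between 2 and 5 Mb the lists differed at further genes. The Th2 list alone had chr2:5607673-5616961 in *Camk1d*, a calcium/calmodulin-dependent kinase gene whose start was in both lists, and chr2:13564681-13580260 with the start of *Vim*, the gene of the intermediate filament protein vimentin. The latter lay 6.11 kb from a shared region. The Th0 list alone had the starts of *Phyh*, a peroxisomal α-oxidation enzyme gene, of the neighbours *Cdc123* and *Nudt5*, and of *St8sia6*, a sialyltransferase gene, and a region within *Usp6nl*, a gene of a GTPase-activating protein. Both lists had regions at *Celf2*, an RNA-binding protein gene (29.3 kb in Th0 and 29.0 kb in Th2 cells), and at the start of *Mindy3*, a deubiquitinase gene (12.8 and 20.8 kb).

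The shared loci on chromosome 2 had similar extents in both lists. Among 32 such loci, 14 were longer in Th2, 17 were longer in Th0 and 1 was equal. The ratio of Th2 to Th0 extent had a median of 0.994 and ran from 0.581, at the distal *Prkcq* region, to 1.63, at *Mindy3*. In total these loci spanned 624 kb in Th0 and 649 kb in Th2 cells. The smallest overlap among them was at *Prpf18*, where 5.55 kb were common, 51.9% of the Th0 and 41.0% of the Th2 region. Just on the other side of the rule lay the Th2-only region 1.08 kb from a Th0 region and a Th0-only region in *Fam107b*, 2.37 kb from a Th2 region. Most one-list regions were farther away. Of the 31 Th2-only regions 3 lay within 10 kb of a Th0 region and 10 lay over 1 Mb from any. Of the 35 Th0-only regions 1 lay within 10 kb of a Th2 region and 16 lay over 1 Mb from any.

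**Figure D3:**
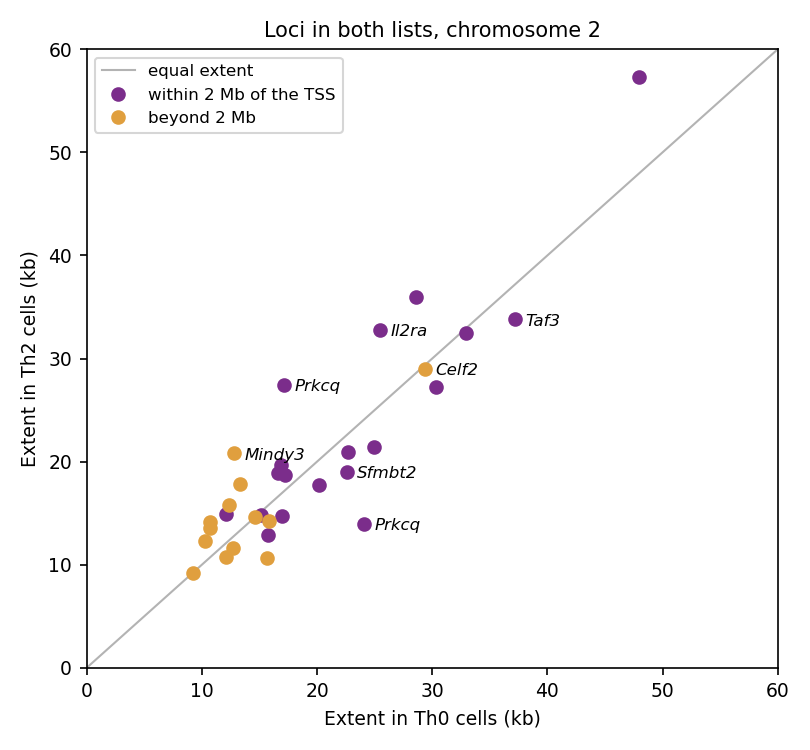
Extent in Th2 cells (kb, y axis) against extent in Th0 cells (kb, x axis) for the 32 loci of chromosome 2 in both lists, each point being 1 locus, with loci within 2 Mb of the *Gata3* TSS in purple and others in orange. The points lie on both sides of the line of equal extent, with the 2 *Prkcq* regions at 27.4 against 17.1 kb and at 13.98 against 24.1 kb.

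One-list regions were smaller than shared ones on chromosome 2. The Th0-only and Th2-only regions had median lengths of 13.2 and 13.1 kb, and the shared regions of 16.6 kb by their Th0 edges and 17.8 kb by their Th2 edges. Counted in NlaIII fragments, no region of chromosome 2 had fewer than 51. Regions within 5 fragments of that minimum made up 11 of 35 Th0-only regions (31.4%) and 12 of 31 Th2-only regions (38.7%), but 6 of 33 shared Th0 regions (18.2%) and 2 of 32 shared Th2 regions (6.25%). Whether this minimum bears on which regions were called in 1 list only was not tested.

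By gene, the lists were again close in size. Of the 1843 protein-coding genes of chromosome 2, 48 (2.6%) had at least 1 base in a Th0 region, 44 (2.39%) in a Th2 region and 73 (3.96%) in either. Of those 73, 16 were in both lists through overlapping regions, 29 were in the Th0 list only and 25 in the Th2 list only. The other 3 were in both lists through regions that did not overlap. In *Abi1* and *Lypd6b*, for example, the Th2 region held the start of the gene and the Th0 region lay further inside it. Genes in both lists through overlapping regions were long, with a median of 101 kb, against 40.0 kb for Th0-only, 43.1 kb for Th2-only and 14.6 kb for all protein-coding genes of the chromosome. A long gene has more room to meet a region. Starts of protein-coding genes lay in 12 of 35 Th0-only (34.3%) and 10 of 31 Th2-only regions (32.3%).

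Farther along chromosome 2, beyond 2 Mb from the TSS, the longest Th0-only region was chr2:37419188-37448073 (28.9 kb), at *Rc3h2*, which encodes the RNA-binding protein Roquin-2, and at *Zbtb6* and *Zbtb26*. It was followed by chr2:130905123-130925078 (19.96 kb) at *Atrn*. Among the 10 longest Th2-only regions were chr2:15052465-15068744 (16.3 kb) at *Nsun6* and *Arl5b* and chr2:25454165-25470324 (16.2 kb) at *Paxx*, *Clic3* and *Ptgds*, the last of which encodes a prostaglandin D2 synthase. Others were at *Kynu* (14.9 kb), an enzyme gene of tryptophan breakdown, at *Ehmt1* (14.8 kb), a histone H3K9 methyltransferase gene, and at *Cdk9* (14.6 kb), the gene of a kinase of transcription elongation. Immune genes chosen for this chromosome were in a region of either list in 8 of 38 cases (21.1%), against 3.96% of all protein-coding genes there. This list was drawn up with the locus in view and includes genes near *Gata3*, so the shares cannot be set against each other as a test. Both lists had *Il2ra*, *Prkcq*, *Zeb2*, a zinc-finger repressor gene 35.2 Mb from the TSS, and *Cytip*, a gene of an adaptor in lymphocytes, 48.3 Mb away. The Th0 list alone had *Il15ra* and *Dpp4*, which encodes the T cell surface peptidase CD26. The Th2 list alone had *Ifih1*, the gene of the double-stranded RNA sensor MDA5, and *Arhgap15*, a gene of a Rac-directed GTPase-activating protein. *Dpp4* and *Ifih1* are near each other, and their regions lay 221 kb apart. Among 27 genes chosen as neighbours of *Gata3*, 6 were in both lists, 5 in the Th0 list only and 1, *Rbm17*, in the Th2 list only. Of all protein-coding genes of the chromosome, 0.868% were in both through overlapping regions, 1.57% in the Th0 list only and 1.36% in the Th2 list only. The neighbours lie near the bait, so these shares are no test. The choice left out *Mindy3* (both lists), *Vim* (Th2 only) and *St8sia6* (Th0 only), also within 5 Mb, and the split depends on it.

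On the other chromosomes regions were longer, with medians of 130 kb in Th0 and 131 kb in Th2 cells, and few were shared. No region there had fewer than 501 NlaIII fragments, against 51 on chromosome 2. The study's methods give w4Cseq different size settings within and between chromosomes. Their part in the lengths and in the sharing was not tested. Of 20095 protein-coding genes of the other chromosomes, 265 (1.32%) were in a Th0 region, 183 (0.911%) in a Th2 region and 409 (2.04%) in either. The 17 shared loci included *Ikzf1* on chromosome 11, the gene of the lymphoid transcription factor Ikaros, whose start lay in regions of 152 kb in Th0 and 155 kb in Th2 cells. They also included *Peli1*, a ubiquitin ligase gene (153 and 136 kb), *Dock8*, a gene of a guanine nucleotide exchange factor of lymphocytes (143 and 125 kb), a cluster of *Ms4a* genes (151 and 153 kb), *Pcgf5*, a Polycomb gene (119 and 117 kb), and *Igf2r* (119 and 124 kb). On chromosome 14 a locus with no protein-coding gene had the same edges in both lists, at chr14:100413513-100558857. Loci near the first bases of chromosome 9 (chr9:3002076-3120495) and chromosome 11 (chr11:3125034-3345396) and on chromosome 14 (chr14:19332049-19524654) were called in 6 or 7 of the 7 libraries, whichever bait was used. The same held for 3 loci of chromosome 2, where all regions joined by overlaps across the 7 lists counted as 1 locus. They were chr2:8735155-8778509, chr2:9966119-10057495 at *Taf3* and chr2:98656806-98671576. Single regions of such a locus need not overlap. The Th0 and Th2 regions in *Taf3* overlapped no mG900-bait region of Th0 cells. In the third locus the region chr2:98656990-98671576 had the same edges in Th0 and Th2 cells. A call with either bait does not mark a contact of the *Gata3* promoter in particular. Such loci are kept in the counts of shared regions. Without them 29 shared Th2 regions were left on chromosome 2 and 14 on other chromosomes. Whether their calls reflect contacts of the bait was not tested.

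Genes of T cells were found on both sides of the comparison. Of 38 genes of the T cell receptor and of T cell identity, 4 (10.5%) were in a region, against 2.2% of all protein-coding genes, 1.43% for Th0 and 1.03% for Th2. *Prkcq*, which lies near the bait on chromosome 2, and *Ikzf1* were in both lists. *Cd3e*, the gene of a CD3 chain, was in the Th0 list only, in a region of 152 kb that held its start. Of 30 genes of Th1, Th17 and regulatory T cells, 2 (6.67%) were in a region. *Il2ra*, on chromosome 2, was in both lists. *Ctla4*, an inhibitory receptor gene, was in the Th2 list only, in a region of 97.7 kb with 501 NlaIII fragments, the minimum on other chromosomes. Counts of this size give no order between the lists.

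Few of the listed genes of the Th2 programme were in a region. Among 41 genes of IL-4 signalling and Th2 cells, 1 (2.44%) was in a region of either list, against 2.2% of all protein-coding genes. A count of 1 shows neither likeness nor difference. *Gata3*, which is among the 41, lies at the bait, where neither list had a region. The gene found in a region was *Tcf7* on chromosome 11, which encodes TCF-1. It lay whole in a Th2-only region of 153 kb. The cytokine genes *Il4*, *Il5* and *Il13* lie on the same chromosome and were in no region. The Th2 region nearest to *Il4* was 1155 kb away and the Th0 region nearest to it was 1487 kb away. *Irf4* on chromosome 13 was in no region but lay 17.2 kb from a Th2 region and 21.9 kb from a Th0 region. The former was at *Dusp22*, where the Th0 list also had an overlapping region, and the latter, a Th0-only region, was at *Exoc2*.

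The longest one-list regions of other chromosomes held various genes. In the Th2 list they included chr10:4332563-4500323 (168 kb) at *Akap12*, chr11:23184267-23347457 (163 kb) at *Xpo1*, a nuclear export receptor gene, chrX:12039750-12201698 (162 kb) at *Bcor*, a corepressor gene, and chr9:21230178-21384318 (154 kb) at *Keap1*, a regulator of the oxidative stress response. In the Th0 list they included chr19:6669976-6956748 (287 kb) at *Rps6ka4* and *Ccdc88b*, chr11:34458177-34692169 (234 kb) at *Dock2*, a gene of lymphocyte migration, and chr3:19244570-19412980 (168 kb) at *Pde7a*. The region at *Rps6ka4* held 745 NlaIII fragments, that at *Dock2* 501, the minimum on other chromosomes, and that at *Pde7a* 839. Their order by length is therefore not their order by fragments. Chosen after the values were seen, a run of *Gimap* genes on chromosome 6, GTPase genes of lymphocyte survival, lay in a Th0-only region of 87.8 kb, and *Bcl6*, a repressor gene of follicular helper T cells, in a Th0-only region of 127 kb.

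The chromosomes differed in how the regions fell. Chromosome 11 had 10 regions in each list and chromosome 10 had 4 in each. Chromosome 14 had 11 Th0 and 4 Th2 regions, chromosome 18 had 8 and 1, and chromosome 16 had 6 and 0. In the other direction, chromosome 15 had 0 Th0 and 5 Th2 regions and chromosome 5 had 1 and 4. Chromosome 19 was the densest in both lists, with 0.163 Th0 and 0.0977 Th2 regions per Mb. With 104 and 66 regions spread over the chromosomes, the numbers on each were too small to be read as a difference between the conditions.

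**Figure D4:**
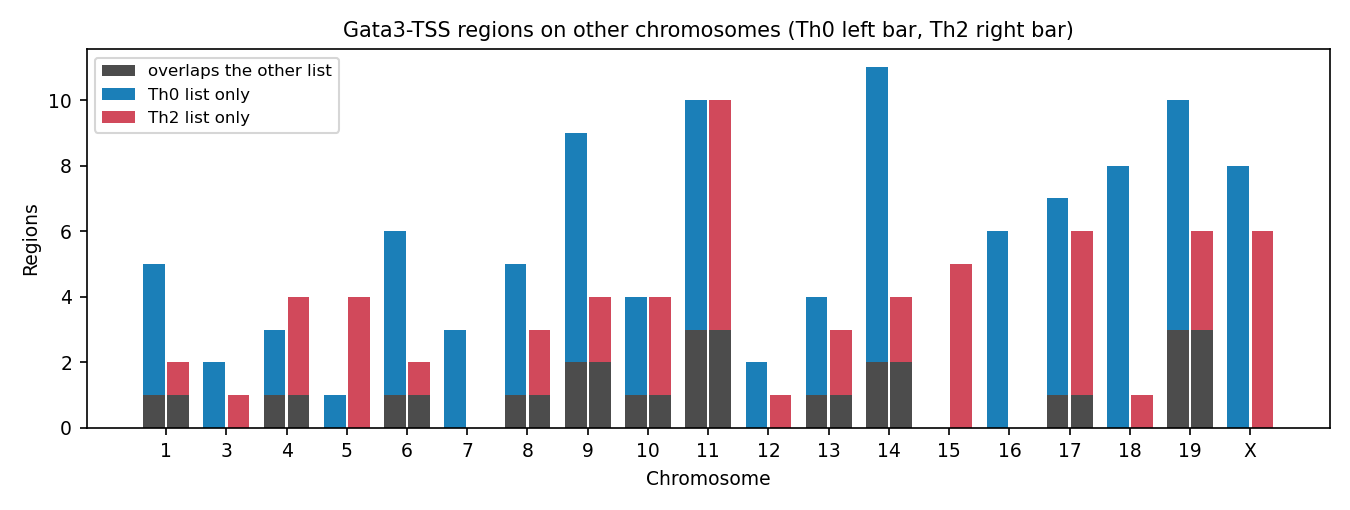
Number of called regions (y axis) on each chromosome other than 2 (x axis), with Th0 as the left and Th2 as the right bar and the part shared with the other list in grey. Chromosome 11 has 10 regions in each list, and chromosomes 15 and 16 have regions of 1 list only.

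The same regions were looked up in the other 5 libraries. On chromosome 2, 28 of 33 shared Th0 regions (84.8%) were also called in naive cells and 28 in Th2 cells in which the mG900 region was deleted (mG900KO), both with the *Gata3*-TSS bait. Th0-only regions were called there in 13 of 35 (37.1%) and 14 of 35 cases (40.0%), and Th2-only regions in 7 of 31 cases (22.6%) each. In neither of these 2 libraries were 15 of 35 Th0-only regions (42.9%) and 21 of 31 Th2-only regions (67.7%). Beyond 5 Mb the latter number was 18 of 23 (78.3%), against 13 of 28 Th0-only regions (46.4%). The naive list, with 277 regions, and the mG900KO list, with 169, were longer than the Th2 list, and a longer list has more chances to hold a region.

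Among the Th2-only regions within 2 Mb, 4 were also called in naive cells. These were the regions at 203 to 228 kb and at 1069 to 1082 kb downstream, the one inside *Prkcq* and the one at *Rbm17*. The regions at 203 to 228 kb and inside *Prkcq* were also called in mG900KO Th2 cells. The regions at 815 to 828 kb and at 908 to 943 kb were called in neither. In mG900KO cells the latter sequence was deleted and could not be called. With the mG900 bait, the region at 815 to 828 kb was called in Th2 and in naive cells. In the mG900-bait list of Th2 cells were also the Th2-only regions at 203 to 228 kb, at 1069 to 1082 kb and inside *Prkcq*, and the Th0-only regions at 573 to 585 kb and at *Il15ra*. The region at 203 to 228 kb was in the mG900-bait list of Th0 cells too. Among the Th0-only regions, the one at 573 to 585 kb was called in both naive and mG900KO Th2 cells, the one at 685 to 694 kb in mG900KO Th2 cells only, and the one at *Il15ra* in neither. On the other chromosomes, 12 of 17 shared regions (70.6%) were called in naive cells, 22 of 87 Th0-only regions (25.3%) and 11 of 49 Th2-only regions (22.4%). *Tcf7*, in the Th2 list but not the Th0 list, lay in a region that was called in naive and in mG900KO Th2 cells, as did *Cd3e*, in the Th0 list but not the Th2 list. The Th2-only region at *Ctla4* was called in naive but not in mG900KO Th2 cells. The Th0-only regions at *Rc3h2* and *Pde7a* and the Th2-only region at *Nsun6* were called in naive and mG900KO Th2 cells. They were also in the mG900-bait list of Th2 cells. The regions at *Atrn*, *Paxx*, *Kynu*, *Ehmt1* and *Cdk9* were called in no other library.

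**Figure D5:**
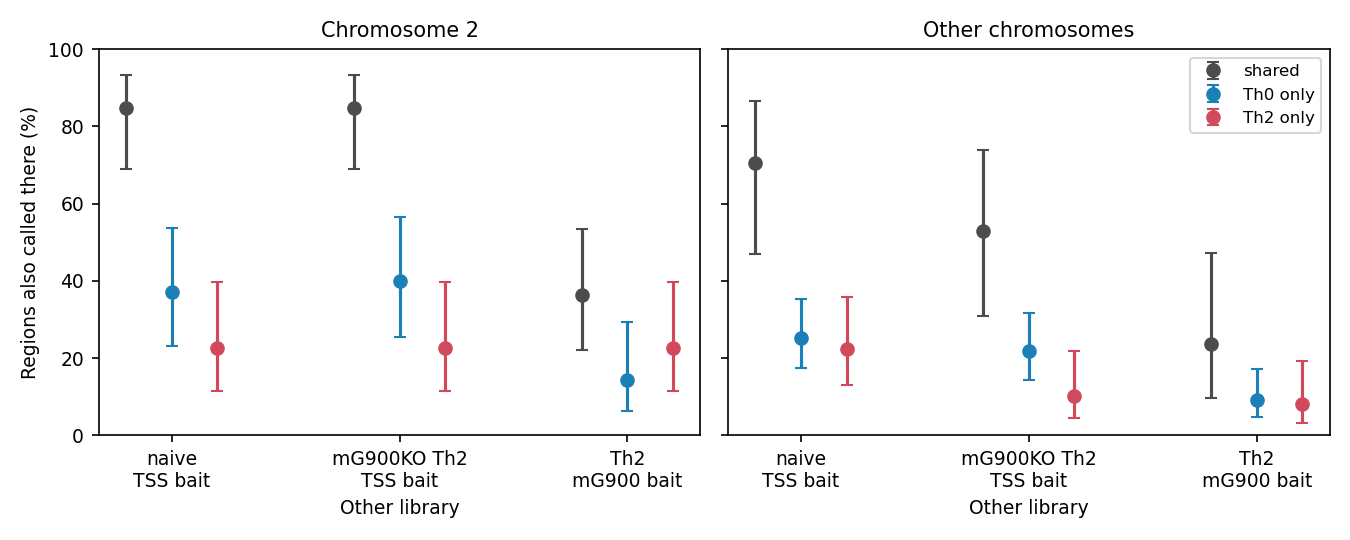
Percent of shared regions (grey, Th0 edges), Th0-only regions (blue) and Th2-only regions (red) that overlap a region of another library (x axis), on chromosome 2 (left) and on other chromosomes (right), with 95% Wilson intervals that cover counting error over regions only. On chromosome 2 the shared regions stand at 84.8% in naive cells, above Th0-only regions at 37.1% and Th2-only regions at 22.6%.

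The sequence of the regions was searched, on both strands, for the letters TGANTCA, bound by AP-1 and BATF, the STAT6 motif, which is TTC and GAA with any 4 bases between them, AGATAA, bound by GATA factors, and CCCTC, part of the CTCF motif, with each motif counted on its own where matches overlap. Within 5 Mb of the TSS, TGANTCA occurred 70 times in 144 kb of Th2-only regions, or 0.486 times per kb. In Th0-only regions it occurred 28 times in 94.4 kb, or 0.297 per kb, in shared regions 0.338 per kb by their Th0 edges, and over all 5 Mb on each side of the TSS 0.324 per kb. For AGATAA the values were 0.917 per kb in Th2-only regions, 0.689 in Th0-only regions and 0.769 over the 5 Mb on each side. The STAT6 motif showed the opposite order, with 0.306 per kb in Th2-only and 0.350 in Th0-only regions. CCCTC occurred 1.83 times per kb in Th2-only and 2.87 times in Th0-only regions, which also differed in GC content, at 40.3% and 42.6%. Beyond 5 Mb, TGANTCA occurred 0.353 times per kb in Th2-only and 0.339 in Th0-only regions. The 8 Th2-only and 7 Th0-only regions within 5 Mb are few, and the values describe their letters and not the binding of a factor.

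The Th2-only region 203 to 228 kb downstream held 19 TGANTCA in 25.4 kb. The region at 908 to 943 kb held 15 TGANTCA, 13 STAT6 motifs and 31 AGATAA. To show where the AP-1 and STAT6 letters lie next to each other, the shortest stretch with both, with 10 bases on each side, is given for the 3 Th2-only regions and the 1 Th0-only region within 2 Mb in which it was shortest, the motif letters in capitals and all on the plus strand. These lie at chr2:9666555-9666592, chr2:8955467-8955534, chr2:8803646-8803707 and chr2:9191827-9191894.
Th2-only, 203 to 228 kb: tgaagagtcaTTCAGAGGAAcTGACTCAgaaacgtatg
Th2-only, 908 to 943 kb: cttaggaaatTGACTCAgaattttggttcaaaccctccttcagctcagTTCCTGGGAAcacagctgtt
Th2-only, 1069 to 1082 kb: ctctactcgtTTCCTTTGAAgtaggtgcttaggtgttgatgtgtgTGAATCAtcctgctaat
Th0-only, 685 to 694 kb: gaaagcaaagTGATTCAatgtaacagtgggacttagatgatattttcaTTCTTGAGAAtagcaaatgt
In the first, the motifs are parted by a single base. Over chromosome 2, 0.0988% of windows of 100 bases held both motifs. Since each region was searched for its shortest stretch, and a long region offers more windows, these stretches are examples and no count.

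Some one-list regions held promoters. The RefSeq promoter sequences (GRCm38.p6, 250 bases before the start) of *Rbm17* (chr2:11603200-11603449, minus strand) and *Vim* (chr2:13574061-13574310, plus strand) lay in Th2-only regions. Both *Il15ra* promoters of the RefSeq table lay in the Th0-only region, and the one at chr2:11705462-11705711, plus strand, is shown with its TGANTCA in capitals.
Rbm17: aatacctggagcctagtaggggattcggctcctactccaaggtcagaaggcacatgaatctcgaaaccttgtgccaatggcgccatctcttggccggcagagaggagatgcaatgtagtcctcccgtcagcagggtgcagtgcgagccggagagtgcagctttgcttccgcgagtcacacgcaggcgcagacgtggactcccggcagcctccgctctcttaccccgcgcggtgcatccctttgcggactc
Vim: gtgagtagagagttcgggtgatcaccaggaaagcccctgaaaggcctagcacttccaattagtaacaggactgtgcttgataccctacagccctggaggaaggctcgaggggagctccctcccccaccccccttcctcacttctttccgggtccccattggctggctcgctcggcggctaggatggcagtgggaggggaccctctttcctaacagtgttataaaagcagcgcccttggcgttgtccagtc
Il15ra: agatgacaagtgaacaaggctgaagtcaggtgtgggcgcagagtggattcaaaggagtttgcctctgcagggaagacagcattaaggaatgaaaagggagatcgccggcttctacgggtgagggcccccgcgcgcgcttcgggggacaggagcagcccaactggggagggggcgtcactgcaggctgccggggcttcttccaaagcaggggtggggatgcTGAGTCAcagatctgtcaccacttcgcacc
Neither of the first 2 held TGANTCA, the STAT6 motif or AGATAA. Nor did the other *Il15ra* promoter, those of *Phyh*, *Cdc123*, *Nudt5* and *St8sia6*, or a *Usp6nl* promoter (chr2:6352486-6352735), all in Th0-only regions. The promoters shown are thus no contrast between the lists. Of the 32851 promoters in the RefSeq table, 6.75% held TGANTCA, 5.85% the STAT6 motif and 9.99% AGATAA.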

How the data were processed

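The authors called regions from the 4C-seq reads with w4Cseq, and the deposited lists give the chromosome, start and end of every significant interacting region in mm10. These lists hold no counts, signal or scores. The aligner is not given in the sources used here. The study's methods name BglII as the second enzyme for this bait and a NovaSeq system, whereas the labels name DpnII and a NextSeq. Depth is unknown. Starts were read as 1-based, since they then fall on the C of CATG.

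Regions were classed by an overlap of at least 1 base, and distances were taken from region middles. Genes were those of GENCODE for GRCm38, and a gene was in a region with 1 base or more. All 27, 41, 30 and 38 genes of the first 4 lists had an entry, and 38 of 39 of the chromosome 2 immune genes (not *Tnfrsf6b*). The named regions are all within 2 Mb, the longest 10 Th2-only, 10 Th0-only and 5 shared ones further on chromosome 2, and on other chromosomes the longest 10 of each one-list class and up to 15 shared ones, with at most 3 genes each. All genes of regions within 5 Mb and all listed genes in a region also count as named. *Prpf18*, *Fam107b*, *Dusp22*, *Exoc2*, *Lypd6b*, *Abi1*, *Irf4*, *Il4*, *Il5* and *Il13* are not covered by it and were picked with their values in view. Members and lists were chosen with earlier results of these data known. No test was run. The overlap code was tested on 200 simulated pairs of lists, with 0 mismatches. Alternatives changed the overlap, merged close regions, kept the longer regions, left out 6 loci called in at least 6 of 7 libraries, moved the TSS by 5 kb, took the nearest edge, and asked for the start or 50% of a gene. The tools were Python 3.11.15, matplotlib 3.10.9, scipy 1.17.1 and numpy 2.4.6. A few items that the rule names are not reported here.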

Additional observations from a re-analysis of the deposited data

Results flagged for a closer look

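The change in the number of regions from Th0 to Th2 cells ran opposite ways for the 2 baits. With *Gata3*-TSS as bait the Th2 list had 0.926 times as many regions as the Th0 list on chromosome 2 and 0.635 times as many on other chromosomes. With the mG900 bait the ratios were 2.31 and 2.5. Each ratio rests on 1 library per condition, and the difference between the baits was not tested. The depth of the 4 libraries, which can set how many regions are called, is unknown.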

How the results depend on the processing

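Across 13 results and 60 alternative values, 53 stayed within the limits set for them (1.5 times for a count, the 95% interval for a median or a share) and 7 left them. All 7 came from dropping the regions shorter than the median of their list. This leaves about 50% of the regions by construction. On chromosome 2 it left 16 shared Th2 regions, 16 Th2-only and 18 Th0-only regions, and on other chromosomes 8, 25 and 44. Under it the share of Th2-only regions on chromosome 2 also called in mG900KO Th2 cells was 43.8%, against 22.6% as reported. Short regions were dropped from every list before the classes were drawn. A shared Th2 region whose Th0 partner was dropped then counted as Th2-only, as at *Mindy3* (20.8 kb in Th2 and 12.8 kb in Th0 cells). The 2 shares are thus of different sets of regions and do not describe long Th2-only regions as first classed. An overlap of at least 50%, merging of close regions, counting close regions as shared, leaving out the loci called in 6 or more libraries, other reference points for distance and other rules for genes moved no result past its limit. Gene counts came close to it. Asking for 50% of a gene left 112 genes in Th2-only regions, against 168 as reported, which is at the limit. In shared regions it left 42 genes, against 62, and leaving out the loci called in 6 or more libraries left 43. No paired analysis was possible because each condition has 1 library and no test was run, and leaving out a replicate was not possible for the same reason. The lists hold no score, so a stricter threshold could not be tried. Differences in depth between the 2 libraries, or in the number of mice behind them, cannot be told apart from differences between the conditions.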
